A study of Mus musculus with 16 samples.

Results

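The cytosolic ribosomal protein genes encode the proteins that, with the ribosomal RNAs, build the small and the large subunit of the ribosome in the cytosol. They were taken from the array annotation as symbols Rpl or Rps followed by a number and at most 1 letter (a, x or l), with Rplp0, Rplp1, Rplp2 and Rpsa added. Rps6k kinases, pseudogenes and probe sets that carry several gene symbols were left out. This gave 45 genes, 24 of the large subunit and 21 of the small subunit, of 18194 genes with a probe set of their own. Each gene is given by its probe set of highest mean over all 16 arrays, and values are the deposited linear intensities. Of 46 matching symbols, Rps4l was left out because RefSeq lists it as a transcribed pseudogene.

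Cells sorted from mouse bone marrow were profiled on Affymetrix arrays, to compare hematopoietic stem cells (HSC) of mid-aged wild-type and mitochondrial mutator mice with those of young and old wild-type mice. All animals are labelled C57Bl6 and female. Young HSC (3 arrays) came from wild-type mice of 9 to 12 weeks and old HSC (3 arrays) from wild-type mice of 24 months. The other HSC came at 32 weeks, 3 arrays labelled Polgtm1Lrsn+/+ (32-week wild type) and 3 labelled Polgtm1Lrsn-/- (mutator). The tm1Lrsn allele is a knock-in that removes the proofreading activity of the mitochondrial DNA polymerase in every tissue of the mouse, so a change in these HSC need not arise in the HSC. Common lymphoid progenitors (CLP), which give rise to lymphoid cells, came from wild-type mice of 8 to 12 weeks, with 2 arrays sorted as Ly6D- and 2 as Ly6D+. Ly6D is a surface protein that marks the CLP leaning to the B lineage. Replicates are labelled biological, and the labels do not say how many animals each sample pooled.

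Ribosomal proteins are made in matched amounts, and surplus free protein is degraded. Many of their mRNAs start with a run of pyrimidines, the 5′ TOP motif, through which mTORC1 signalling sets how much of the mRNA is translated. HSC are known to hold a low rate of protein synthesis, and loss of 1 copy of a ribosomal protein gene such as Rps19 or Rpl11 causes Diamond-Blackfan anemia, a failure of red cell production. Array intensities report mRNA and say nothing of translation or of assembled ribosomes. In these bulk samples, fewer cells of a type and less RNA per cell cannot be told apart.

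RefSeq promoter windows (GRCm38.p6) were found for 40 of the 45 genes. A run of at least 5 C or T that covers the annotated first transcribed base was present in 13 of the 40 (32.5%), against 11.8% of 27025 genes. The run with C as the first transcribed base was present in 8 (20.0%), against 6.6% of all genes. Such a run may include bases before the start, which are not transcribed, so it is not the TOP motif itself. The letters CCGGAAG, the core of the site bound by ETS factors such as GABPA, stood on either strand within 300 bases in 20 of the 40 (50%), against 9.9% of all genes. The annotated start may differ from the base at which transcription begins, and a match is not a bound site. The windows below run 5′ to 3′ from 30 bases before the annotated start to 15 bases from it, with the pyrimidine run in capitals. They are shown because these 6 genes recur in the results, and the first 4 hold the run while Rps15 and Rps19 do not at the start shown.
Rps10 (minus strand, chr17:27635230-27635274): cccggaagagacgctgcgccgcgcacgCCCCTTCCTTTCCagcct
Rps6 (minus strand, chr4:86857353-86857397): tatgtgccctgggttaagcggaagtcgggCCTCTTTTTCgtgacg
Rpl38 (plus strand, chr11:114668550-114668594): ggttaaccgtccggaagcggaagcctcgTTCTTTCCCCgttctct
Rpl35 (minus strand, chr2:39005117-39005161): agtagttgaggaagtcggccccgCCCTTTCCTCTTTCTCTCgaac
Rps15 (plus strand, chr10:80292401-80292445): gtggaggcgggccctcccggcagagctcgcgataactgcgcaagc
Rps19 (plus strand, chr7:24884562-24884606): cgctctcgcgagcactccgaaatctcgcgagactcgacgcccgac
Rps10 and Rpl38 were each past the threshold in the direction of higher signal in at least 1 comparison below, and Rps6 in that of lower signal. Rpl35 was past it as higher in 32-week wild-type against young HSC and as lower in CLP against 32-week wild-type HSC. Whether the run bears on the direction of a change was not tested.

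Most ribosomal protein genes gave very bright probe sets. The intensity was above 1000 on every array for 33 of the 45 members, and between 30 and 33 members lay in the brightest 1% of probe sets on each array. The 5 with the highest mean were Rps7 (14564 to 23325 over the 16 arrays), Rps4x (15868 to 21103), Rpsa (14939.8 to 19031), Rps28 (13734 to 19158) and Rps20 (14013 to 20012). The highest intensity of any probe set was 32952, and the files do not flag saturation, so whether the brightest members could rise further was not tested. The 5 with the lowest mean were Rps16 (7.0 to 10.5), Rpl3l (7.96 to 34.2), Rpl39l (9.78 to 35.8), Rps27 (22.2 to 71.6) and Rpl39 (25.3 to 61.9). Rps16 did not pass the 40th percentile of its array on any array and was never tested.

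The dim signals of Rps16, Rps27 and Rpl39 are those of their only probe set with a single symbol. The annotation lists each of these 3 symbols also on bright probe sets with several symbols, such as one with Rpl39 and another symbol at a mean of 20226 in young HSC, which cannot be assigned to 1 gene. In all, 110 probe sets with several symbols hold a ribosomal protein symbol, 28 further genes (Rpl5 and Rplp1 among them) are listed only there, and 15 of the 45 members are listed there as well. For 8 more, Rpl10l and Rps27a among them, no probe set was found in the annotation used here. The 45 members have 99 probe sets of a single symbol, with several in 23 genes and 1 in 22. A level is therefore compared only between samples for the same probe set.

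The arrays differ in ways that touch the results. The 3′ over 5′ signal of the actin control transcript, which rises when RNA is degraded or copied incompletely, was 2.39 to 2.62 on the log2 scale in young HSC and 2.20 to 2.27 in old HSC. It was 4.24 to 5.26 in 32-week wild-type HSC and 4.74 to 5.25 in mutator HSC, with no overlap with the young or old arrays. In CLP it was 2.11 and 2.52 in Ly6D- and 2.51 and 3.85 in Ly6D+. The HSC markers and the CLP markers followed the labels, with a summed intensity of the 7 HSC genes of 5688 to 10434 in HSC and 179 to 398 in CLP, and of the 6 CLP genes of 131 to 344 and 16571 to 23150. Sums of 9 markers of neutrophils, a cell type a sort could carry along, varied within groups. They ran from 1414 to 9296 in 32-week wild-type HSC and from 2776 to 6609 in young HSC. The 9 genes did not move together, so the sum is no measure of neutrophils alone. Mean Prtn3 was 1202 in young and 3012 in old HSC, and mean S100a8 1005 and 129. In Ly6D- CLP S100a8 was 16.1 on array 1 and 1371 on array 2. There S100a9, Ltf, Camp, Ngp and, slightly, Elane were higher on array 2 too, and Mpo, Prtn3 and Ctsg were lower. Xist was 9.12 to 16.8 and the Y-linked Eif2s3y 423 to 758 on 32-week wild-type array 3 and all 4 CLP arrays, although all samples are labelled female. Young arrays 2 and 3 differed least of any arrays of a group (SD of the log2 difference over genes 0.180, against 0.281 to 0.741 for the other pairs), and results are also given with them counted as 1.

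**Figure D1:**
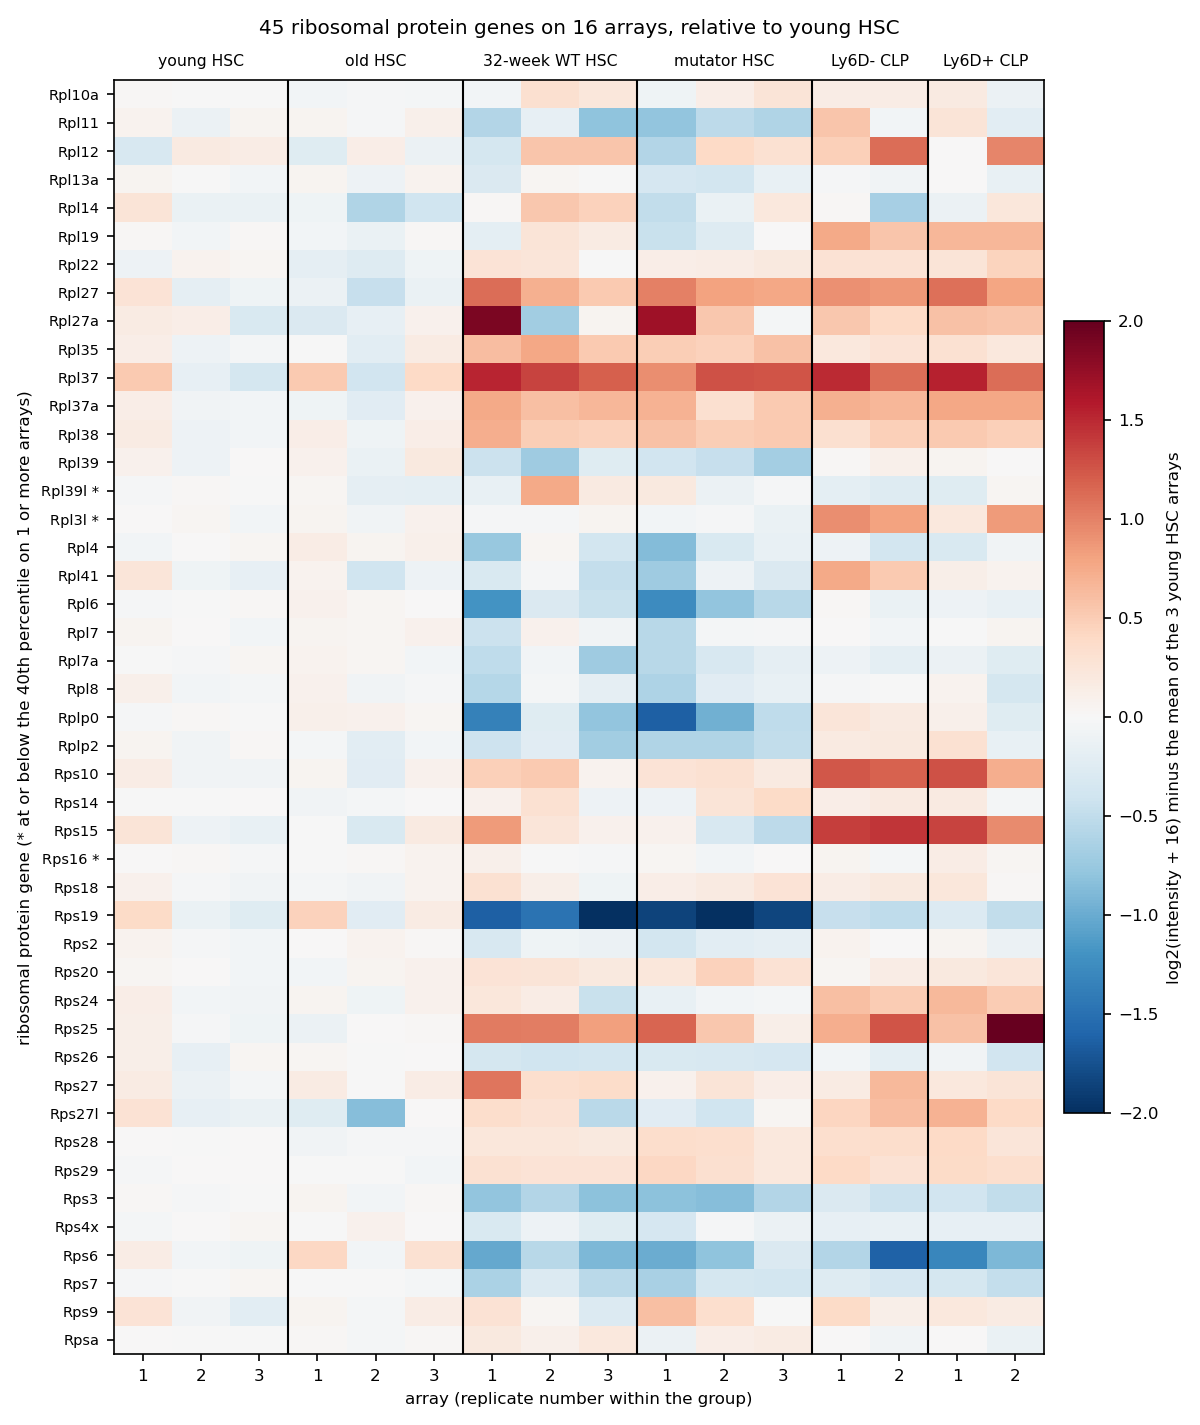
Each row is 1 of the 45 ribosomal protein genes and each column 1 array; the colour gives log2(intensity + 16) minus the mean of the 3 young HSC arrays, with an asterisk on the 3 genes at or below the 40th percentile of 1 or more arrays. The old HSC columns are close to white, Rps19 is blue in all 6 arrays of 32 weeks, and Rps10 and Rps15 are red in all 4 CLP arrays.

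The first comparison asks whether ribosomal protein mRNAs differ between old and young HSC. Of the 42 members tested on the 12 HSC arrays, 0 passed the threshold of an adjusted p under 0.05 (limma, Benjamini-Hochberg), against 1.31% of the 13482 genes tested, and 0 had an unadjusted p under 0.05. The median log2 change of the members was -0.003 and that of all genes -0.009. Changes ran from -0.36 to 0.22, and 40 of the 42 were within 0.25 of 0 on the log2 scale. The 95% confidence interval lay inside a log2 change of ±1 for 41 members and inside ±0.5 for 27, so the interval reached a log2 change of 1 for a single member, Rpl27a (-1.36 to 1.12). Arrays of the old and young groups did not overlap for 4 members, 9.5% of them, against 27.2% of all genes. That share of members with separate groups was below the share of all genes, as counts with no test.

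The members nearest to a change were given by the smallest p in each direction. Rpl14, a large-subunit protein, was 721, 541 and 545 in young and 564, 389.7 and 448 in old HSC, a log2 change of -0.36 (95% confidence interval -0.85 to 0.13, adjusted p = 0.857). Old arrays 2 and 3 were below all young arrays and old array 1 was not. Rpl22, a large-subunit protein needed for T cell development, had a log2 change of -0.18 (SE 0.13, adjusted p = 0.973), and its other probe sets gave values on both sides of 0 (-0.09 and 0.41). Rps27l, a paralog of Rps27 known as a p53 target, was 930.1, 671 and 690.2 in young and 637, 411 and 760.4 in old HSC, a log2 change of -0.36 (SE 0.28, adjusted p = 0.985) with overlapping arrays. On the positive side stood Rps6, 2791, 2425 and 2363 in young and 3354, 2433 and 3110.5 in old HSC, with a log2 change of 0.22 (95% confidence interval -0.23 to 0.68, adjusted p = 0.9996). Rps6, a small-subunit protein that S6 kinase phosphorylates when mTORC1 is active, was above all young arrays on old arrays 1 and 3. Rps19 (0.13, SE 0.22) and Rpl37 (0.18, SE 0.27) came next by p among positive values, and their arrays overlapped too. The excluded pseudogene Rps4l was 62.0, 78.5 and 78.0 in young and 25.7, 23.7 and 17.3 in old HSC, a log2 change of -1.22 (SE 0.39, adjusted p = 0.236), with no overlap.

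The genes best known in blood disease were close to level between young and old HSC. Rps14, the small-subunit gene whose loss of 1 copy marks the 5q- syndrome, was 11684, 11689 and 11729 in young and 11161, 11329.7 and 11775 in old HSC. Rpl11, which with Rpl5 and 5S rRNA binds the p53 regulator Mdm2, was 5661, 4994 and 5594 in young and 5596, 5332 and 5823 in old HSC. Their log2 changes were -0.04 and 0.04, and their arrays overlapped. Of the 12 tested members on the list of Diamond-Blackfan genes, 0 passed, with changes from -0.24 (Rpl27) to 0.13 (Rps19). The stalk proteins Rplp0 (0.08) and Rplp2 (-0.10), which recruit the elongation factors, and Rpsa (0.01), also known as the laminin receptor, had changes within 0.25 of 0 as well. The X-linked Rps4x had a log2 change of 0.03 and Rpl41, the smallest ribosomal protein, one of -0.14.

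The second comparison asks whether the mutator allele changed these mRNAs in HSC at 32 weeks. Of the 42 members, 0 passed the threshold, as did 0% of all genes tested, and 2 had an unadjusted p under 0.05. The median log2 change was -0.073 (all genes -0.004), with 29 members below 0 and 13 above. Among large-subunit genes 19 of 22 were below 0, and among small-subunit genes 10 of 20. Without wild-type array 2 the members' median was 0.017, so its sign rests on that array.

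Rps15 had the smallest p. It was 6645, 4360.1 and 3905 in wild-type and 3921, 2941 and 2544 in mutator HSC, a log2 change of -0.65 (95% confidence interval -1.16 to -0.13, adjusted p = 0.618). Mutator array 1 lay just above the lowest wild-type array, so the groups overlapped. Rps15 is a small-subunit protein needed to export the small subunit from the nucleus. Rps27, measured by a dim probe set, was 71.6, 36.5 and 37.8 in wild-type and 28.4, 33.6 and 29.5 in mutator HSC, a log2 change of -0.44 (SE 0.19, adjusted p = 0.676). Its arrays did not overlap, as for 6.07% of all genes, and wild-type array 1 was far above the rest. Rpl14 had a log2 change of -0.48 (SE 0.22, adjusted p = 0.683). On the positive side, Rps9 (0.29, SE 0.20, adjusted p = 0.824), Rps28 (0.08, SE 0.11, adjusted p = 0.933) and Rps20 (0.09, SE 0.12, adjusted p = 0.935) had the smallest p. Rpl27a was high on array 1 of both 32-week groups, at 3079, 507 and 859 in wild-type and 2716, 1213 and 806 in mutator HSC, and its log2 change was 0.32 (95% confidence interval -0.92 to 1.56, adjusted p = 0.953). Rplp0 was low on the same arrays, at 4805, 10391 and 7081 in wild-type and 3951, 6276 and 8606 in mutator HSC. The other members named by role had log2 changes of -0.19 (Rps19), 0.08 (Rps14), 0.14 (Rps6), -0.12 (Rpl11), -0.11 (Rpsa), -0.12 (Rplp2), -0.02 (Rpl38), -0.01 (Rpl22), 0.06 (Rps4x) and -0.23 (Rps27l).

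The change with the mutator allele was then set against the change with age in 1 contrast of the same fit, mutator minus 32-week wild type less old minus young. For 42 members 0 passed, against 0.512% of all genes, and 0 had an unadjusted p under 0.05. Rps27 had the smallest p with a difference of -0.54 (95% confidence interval -1.13 to 0.06, adjusted p = 0.708), and Rps15 followed at -0.61 (95% confidence interval -1.34 to 0.13, adjusted p = 0.764). Rpl27 (0.32, SE 0.27) and Rpl22 (0.16, SE 0.18) were the first by p on the positive side. The interval lay inside a difference of ±1 for 33 members and inside ±0.5 for 10. The members' median was -0.080, and it was 0.014 without 32-week wild-type array 2 and 0.008 without mutator array 1.

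**Figure D2:**
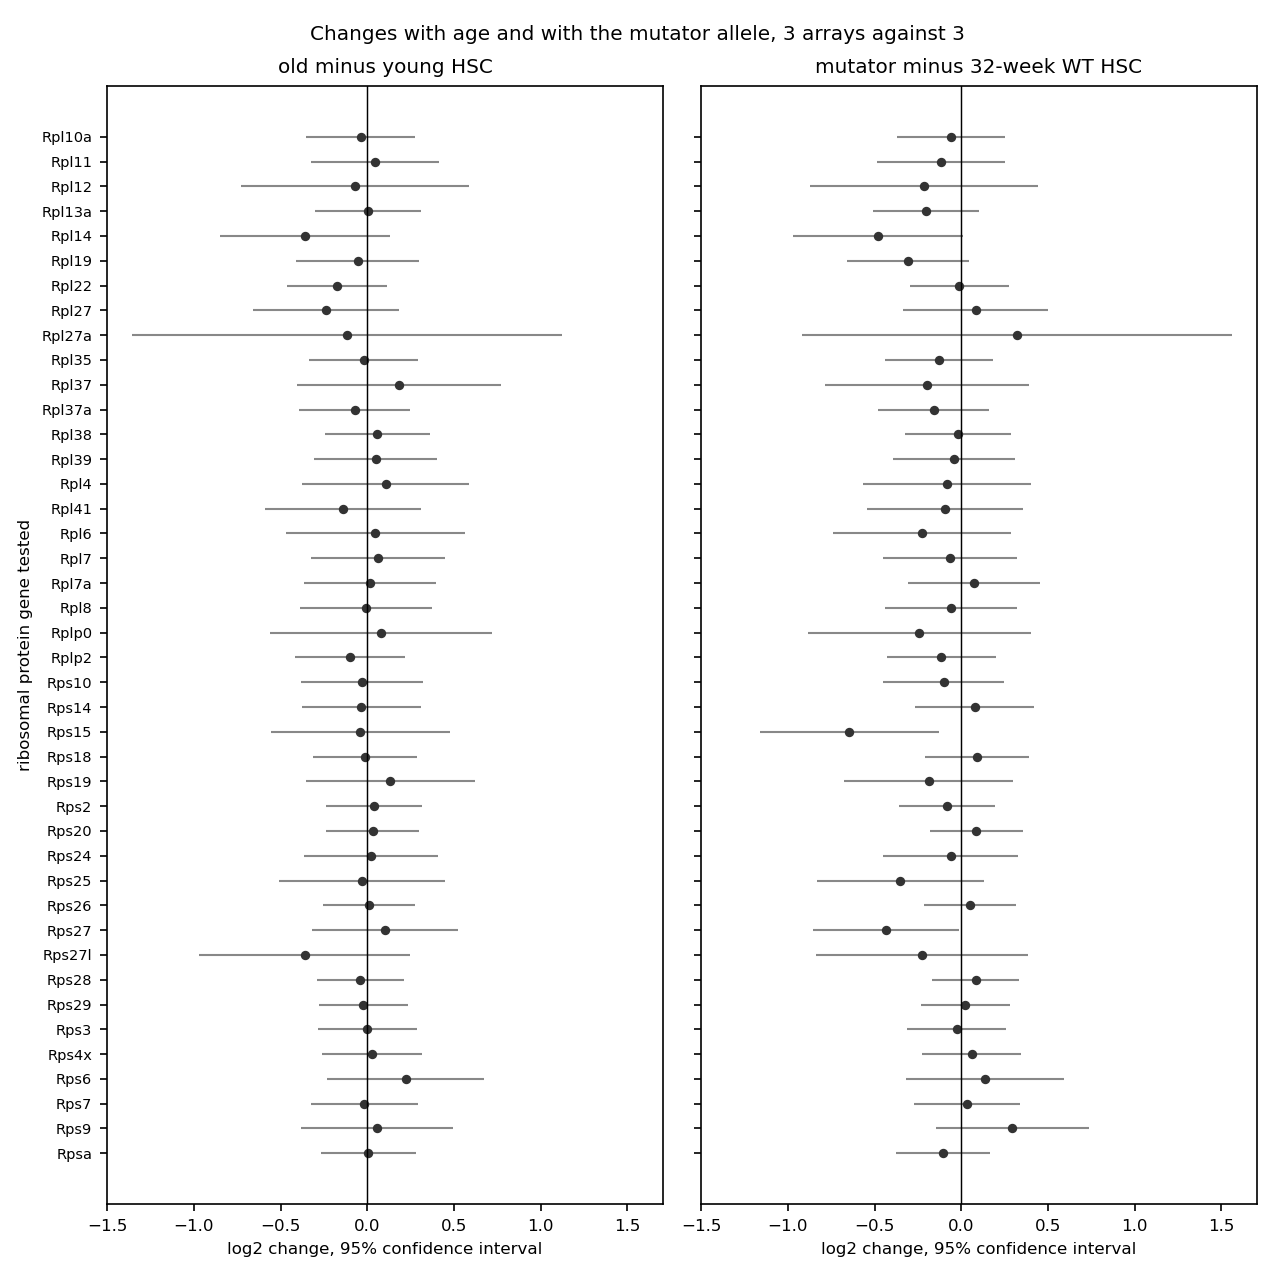
Points are log2 changes of the 42 tested ribosomal protein genes and lines their 95% confidence intervals, for old minus young HSC (left) and mutator minus 32-week wild-type HSC (right), 3 arrays against 3 in each. Points lie within 0.36 of 0 on the left, and on the right most large-subunit genes lie left of 0, with Rps15 farthest at -0.65.

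The 32-week wild-type HSC differed from young HSC in many of these genes, in both directions. Of 42 members, 7 were higher and 7 lower (33.3%), against 24.2% of all genes, 6.42% higher and 17.7% lower. The members' median was 0.053 and that of all genes -0.037, or -0.125 after median centring. In this comparison age, the 3′ over 5′ ratio above and whatever else set the 2 sets of arrays apart cannot be told apart. Mutator HSC, whose arrays have a similarly high ratio, are given beside the genes named next.

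The drop was largest for Rps19, the small-subunit protein first linked to Diamond-Blackfan anemia. It was 10154, 7092 and 6569 in young and 2512, 2778 and 1899 in 32-week wild-type HSC, a log2 change of -1.71 (SE 0.22, adjusted p = 0.000592). Every 32-week array was below every young array, and old HSC (10766, 6671 and 8699) were at the young level. In mutator HSC it was 2141, 1929.5 and 2166, and in CLP 5667 and 5452 (Ly6D-) and 6452 and 5508 (Ly6D+), between the 2 sets of HSC. Rps6 was 2791, 2425 and 2363 in young and 1237, 1708 and 1338 in 32-week wild-type HSC, a log2 change of -0.83 (SE 0.21, adjusted p = 0.0143), with no overlap. In mutator HSC it was 1264, 1442 and 2061, below all young arrays. Without young array 1 its change was -0.75 and no longer past the threshold. Rps3, a small-subunit protein at the entry of the mRNA channel, was 17967, 17298 and 17496 in young and 10217, 11719.5 and 9965 in 32-week wild-type HSC, a log2 change of -0.73 (SE 0.13, adjusted p = 0.00275). Rpl11 (-0.52, SE 0.17, adjusted p = 0.0423) and Rps7 (-0.48, SE 0.14, adjusted p = 0.0271) fell by less, and so did the stalk protein Rplp2 (-0.45) and Rps26 (-0.37). Each of those 4 calls was lost in 5 of the 6 fits that left out 1 array.

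The rise was largest for Rpl37, a large-subunit zinc-finger protein. It was 572, 349.7 and 307 in young and 1165, 1028 and 925 in 32-week wild-type HSC, a log2 change of 1.35 (SE 0.27, adjusted p = 0.00453). Rps25, a small-subunit protein needed for translation from viral internal entry sites, was 624, 562 and 539.8 in young and 1202, 1187 and 1022 in 32-week wild-type HSC, a log2 change of 0.96 (SE 0.22, adjusted p = 0.00911). In mutator HSC Rpl37 was 769, 980.5 and 964 and Rps25 1306, 842 and 627, with Rps25 on mutator array 3 close to the young level. In both genes every 32-week wild-type array was above every young array, and old HSC (575, 300.2 and 525 for Rpl37, 531, 576 and 581 for Rps25) were not. Rpl27 (0.78, SE 0.19, adjusted p = 0.0129), Rpl37a (0.67, SE 0.15, adjusted p = 0.00715) and Rpl35 (0.64, SE 0.14, adjusted p = 0.0083) were the next largest, all of the large subunit. Rps27 (0.59) and Rpl38 (0.56), the gene whose loss alters Hox mRNA translation and skeletal patterning, were higher too. The calls of Rpl35 and Rpl37a were lost when all probe sets of a gene were averaged or when probe sets of the less specific types _x_at and _s_at were left out, and in the latter case Rpl35 turned to -0.44. With all probe sets averaged the calls of Rpl27 and Rps6 were lost too. The Rps27 call held in 2 of 6 fits that left out 1 array, and was lost after quantile normalization or median centring. Those of Rpl27 and Rpl38 held in 4 of 6. The arrays of the 2 groups did not overlap for any of the 14 genes. Arrays did not overlap for 24 of the 42 members in all (57.1%), against 38.3% of all genes.

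The other members named by role did not pass. The stalk protein Rplp0 was 12099.5, 12454 and 12169 in young and 4805, 10391 and 7081 in 32-week wild-type HSC, a log2 change of -0.79 (SE 0.29, adjusted p = 0.0714), and the latter arrays spread over a wide range. Rps14 (0.10), Rpsa (0.17), Rps4x (-0.22), Rpl22 (0.17), Rpl41 (-0.27), Rpl39 (-0.47) and Rps27l (0.03) had log2 changes that did not pass either. Of the 12 Diamond-Blackfan members 3 were higher (Rpl27, Rpl35, Rps27) and 4 lower (Rps19, Rpl11, Rps7, Rps26). The count of 14 fell to 8 without young array 1 and to 7 without young array 2, without young array 3, or with young arrays 2 and 3 counted as 1. It was 12 without 32-week array 3, whose sex-linked transcripts differ from its group, and 7 when only the 6 arrays compared were fitted. Rps19, Rps25, Rps3, Rpl37, Rpl37a and Rpl35 were past the threshold in all 6 fits that left out 1 array.

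**Figure D3:**
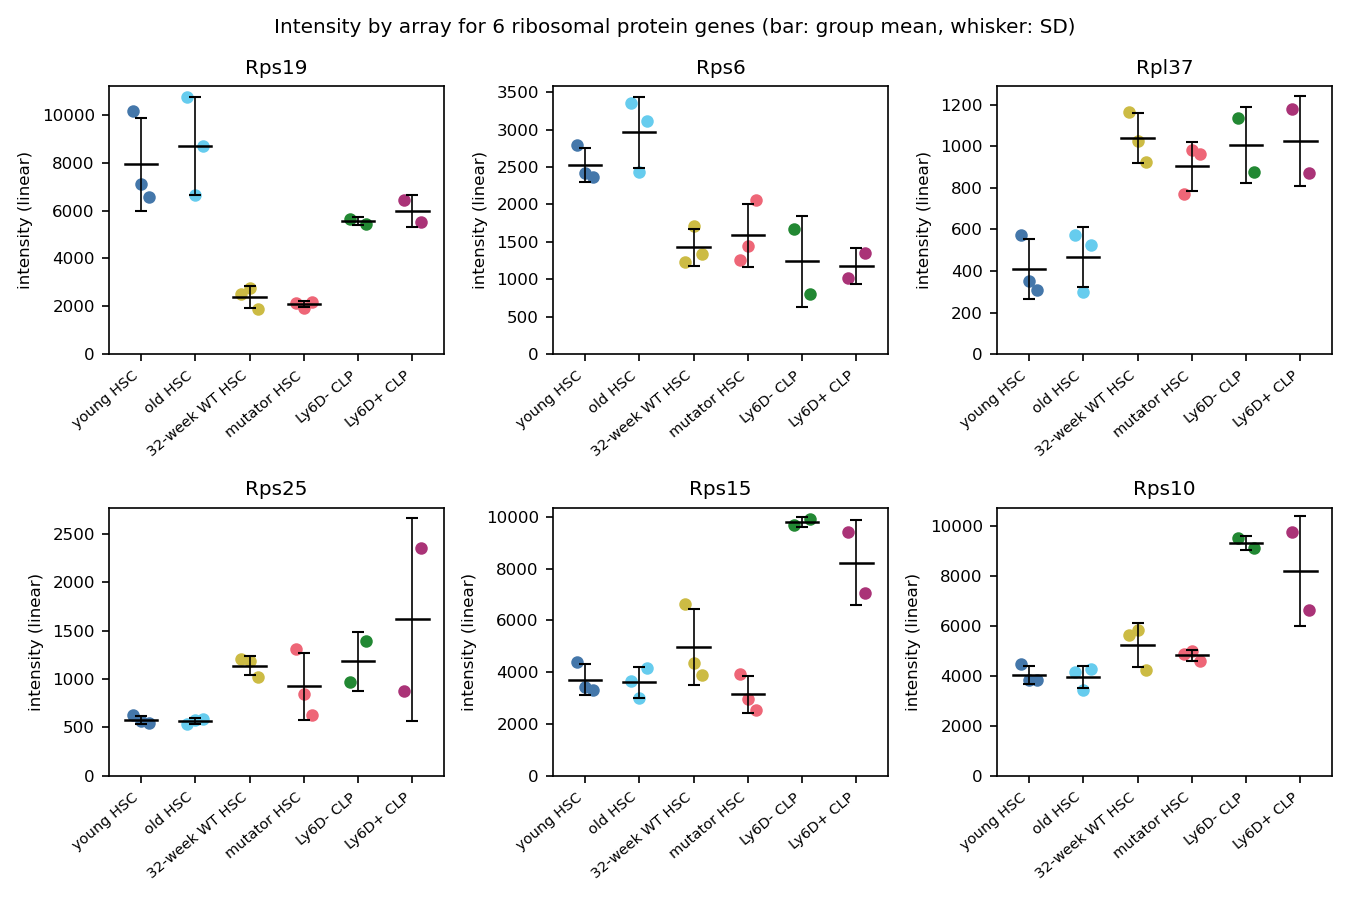
Linear intensity of 6 ribosomal protein genes on each array (points), with the group mean (bar) and SD (whisker) over 3 HSC or 2 CLP arrays. Rps19 and Rps6 are lower and Rpl37 and Rps25 higher in both groups of 32 weeks than in young HSC, while Rps15 and Rps10 are highest in CLP.

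Probe sets of the same gene did not give the same answer in this comparison. Tested as rows of their own, 17 of 90 probe sets were higher and 12 lower. The sign differed between probe sets in 11 of the 20 genes with several tested, and in 11 of 20 for old against young HSC too. The median spread within a gene was 0.688 on the log2 scale, against 0.155 for old against young HSC. The share of all probe sets past the threshold and the spread within other genes were not counted. Whether these values are particular to the members is therefore not known. In Rpl27 one probe set fell (-0.67, SE 0.18, adjusted p = 0.0209) while the probe set of highest mean rose (0.78, SE 0.19, adjusted p = 0.0137). Rpl41 had 2 probe sets that rose (1.23 and 0.96) and 2 that did not pass (-0.27 and -0.23). In Rpl22 (-1.56), Rps9 (-1.43) and Rpl13a (-1.03) 1 dimmer probe set fell while the brightest did not pass. Rps3 had 2 probe sets that fell (-0.73 and -1.16) and 1 that did not pass, at 0.35. Among probe sets with 1 symbol, Rps19, Rpl37 and Rps25 have a single one, and the second one of Rps6 was at background. Probe sets with several symbols, which cannot be assigned to 1 gene and were not tested, also list these genes. A bright one that lists Rpl37 was 8547, 6732 and 6807 in young and 13170.1, 13556 and 12681 in 32-week wild-type HSC, again with every 32-week array higher. The brightest one that lists Rps6 was 28306, 27740.5 and 28352 in young and 14929.7, 20855 and 18342 in 32-week wild-type HSC, with every 32-week array lower. One that lists Rps25 was 3980.1, 3747 and 4295 and 5517, 4674 and 4215 in the same order, and its groups overlapped. The one that lists Rps19 was at 17.1 to 20.5 on these arrays. The part of the 3′ over 5′ ratio in these differences was not tested.

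**Figure D4:**
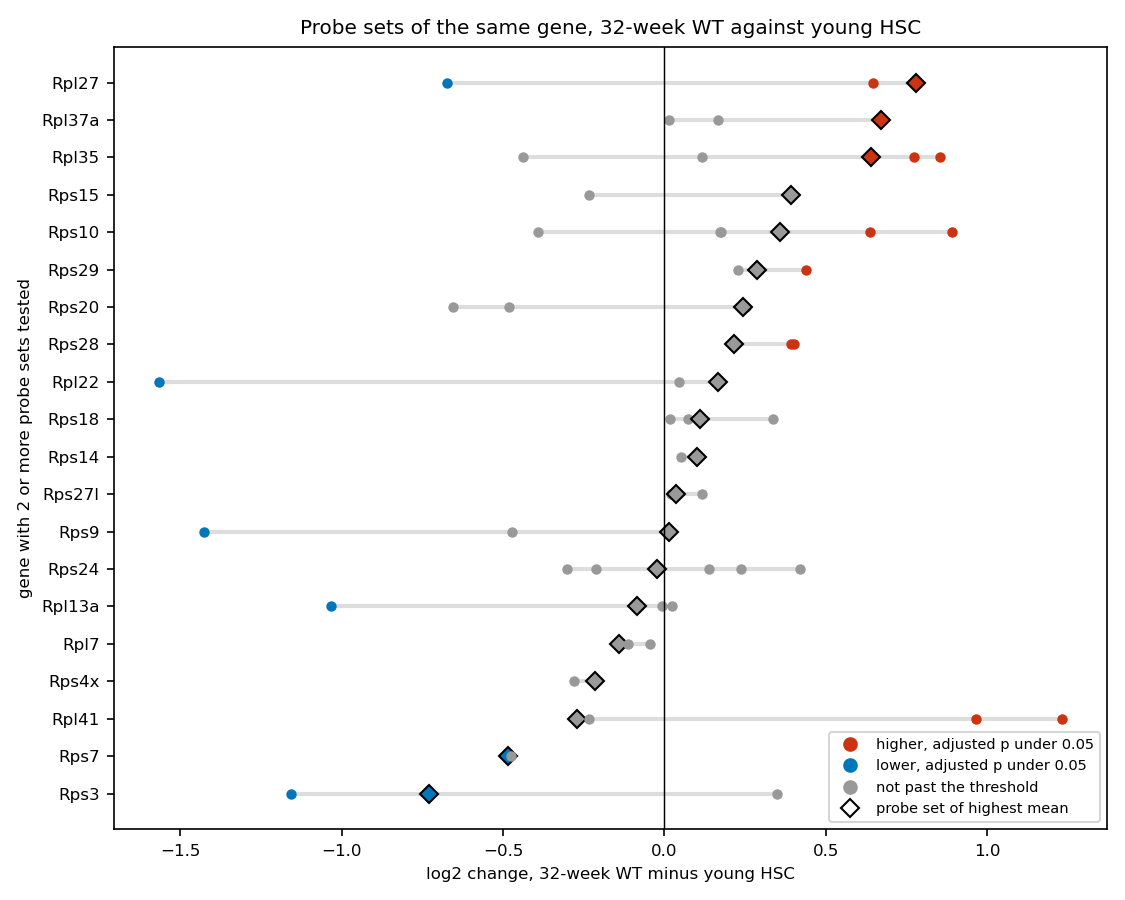
Each point is 1 probe set of a gene with several, placed by its log2 change in 32-week wild-type minus young HSC; red is higher and blue lower at an adjusted p under 0.05, grey did not pass, and diamonds are the probe sets of highest mean. Rpl27 has red and blue points, and Rpl22, Rps9 and Rpl13a have a blue point far left of their diamond.

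Between the 2 CLP populations, with 2 arrays each, 0 of 44 members passed, against 2.68% of 14344 genes, and 1 had an unadjusted p under 0.05. The members' median was -0.028 and that of all genes 0.015. Rpl41 had the smallest p, at 13752 and 11628 in Ly6D- and 8763 and 8561 in Ly6D+ CLP, a log2 change of -0.55 (95% confidence interval -1.06 to -0.03, adjusted p = 0.337). The arrays did not overlap, as for 35.2% of all genes, and with the mean of all its probe sets Rpl41 was the 1 member past the threshold. Rpl3l (-0.34, SE 0.18) and Rps10 (-0.21, SE 0.21) came next among negative values, and Rpl14 (0.38, SE 0.30), Rps20 (0.12, SE 0.14) and Rps25 (0.30, SE 0.39) among positive ones. Without Ly6D+ array 2, Rps25 was at -0.41 and Rps10 at 0.065, so their signs rest on that array. The interval lay inside a log2 change of ±1 for 38 members and inside ±0.5 for 22.

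In both CLP populations the share of members past the threshold against young HSC was near that of all genes, mostly with higher signal. In Ly6D- CLP 10 of 44 members were higher and 1 lower (25%), against 24.4% of all genes, 9.55% higher and 14.9% lower, and after quantile normalization 8 were higher and 2 lower. In Ly6D+ CLP 11 were higher and 2 lower (29.5%), against 24.3%, 10.4% higher and 13.9% lower. These counts include Rpl3l, which passed the filter only through CLP arrays and so had to differ. Without it 9 of 43 were higher and 1 lower in Ly6D- CLP (23.3%), and 10 of 43 were higher and 2 lower in Ly6D+ CLP (27.9%). The members' median without Rpl3l was 0.186 in Ly6D- and 0.080 in Ly6D+ CLP, beside -0.001 and 0.009 for all genes. Arrays of the groups did not overlap for 33 of 44 members (75%) in Ly6D- CLP and 26 (59.1%) in Ly6D+ CLP, against 57.6% and 58.4% of all genes. Rpl3l is among the members in both of these counts. Both comparisons share the young arrays, so their agreement is not independent. Against young HSC, 7 members besides Rpl3l were higher in both (Rpl19, Rpl27, Rpl37, Rpl37a, Rps10, Rps15 and Rps24) and 1 was lower in both (Rps6). The share of all genes past the threshold in both was not counted.

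Rps15 was 4391, 3421 and 3322 in young HSC, 9674 and 9935 in Ly6D- and 9405 and 7070.0 in Ly6D+ CLP. The log2 change was 1.41 (SE 0.26, adjusted p = 0.00154) in Ly6D- and 1.14 (SE 0.26, adjusted p = 0.00543) in Ly6D+ CLP. All 4 CLP arrays were above all 12 HSC arrays. Rps10, a small-subunit protein that is ubiquitinated when ribosomes stall, was 4461, 3819 and 3837 in young HSC, 9521 and 9132 in Ly6D- and 9753 and 6647 in Ly6D+ CLP. Its log2 changes were 1.21 (SE 0.19, adjusted p = 0.000599) and 0.996 (SE 0.19, adjusted p = 0.0021), and again no HSC array reached the CLP arrays. The promoter window of Rps10 above holds a pyrimidine run of 13 bases over its annotated start, and that of Rps15 holds none. A link of the run to these changes was not tested.

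Further rises were seen in the large subunit. Rpl37 was 1137 and 878 in Ly6D- and 1178 and 872 in Ly6D+ CLP, with log2 changes from young HSC of 1.30 (SE 0.30, adjusted p = 0.00629) and 1.32 (SE 0.30, adjusted p = 0.0055). Those levels were also those of 32-week HSC (1165, 1028 and 925). Rpl27 was 6221 and 6055 in Ly6D- and 7103 and 5696 in Ly6D+ CLP, with log2 changes of 0.89 (SE 0.21) and 0.94 (SE 0.21). Rpl19, which forms a bridge between the subunits, was 8195, 7771 and 8127 in young HSC, 13646 and 11845 in Ly6D- and 12796 and 12670.0 in Ly6D+ CLP, and here the CLP arrays were above all HSC arrays. Its log2 changes were 0.66 (SE 0.17) and 0.66 (SE 0.17). Rpl37a (0.69 and 0.78) and Rps24 of the small subunit (0.55 and 0.57) were higher in both. In Ly6D- CLP Rpl41 (0.64) and Rps28 (0.35) passed too, and in Ly6D+ CLP Rps25 (1.30), Rpl38 (0.49) and Rps29 (0.36). Rps25 was 872 and 2358 on the 2 Ly6D+ arrays; without array 2, which has the actin ratio of 3.85, its change was 0.59 and did not pass. Left out 1 array at a time, the calls of Rpl27, Rpl37a, Rps10 and Rps15 held in all 5 fits for Ly6D- CLP, and those of Rpl37a and Rps10 in all 5 for Ly6D+ CLP. The Rps24 call held in 0 of 5 fits for Ly6D- and 1 of 5 for Ly6D+ CLP, and without the _x_at and _s_at probe sets Rps24 turned to -1.63 and -0.71. The call of Rpl41 held in 1 of 5 fits and that of Rps28 in 0 of 5 for Ly6D- CLP, and the call of Rpl38 held in 1 of 5 and that of Rps29 in 0 of 5 for Ly6D+ CLP. Rpl19 was lost without Ly6D- array 1 and, in the other comparison, without either Ly6D+ array. Rpl37 was lost without Ly6D- array 1 and without Ly6D+ array 1, and the Ly6D+ calls of Rpl27 and Rps15 without Ly6D+ array 1.

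The paralog Rpl3l, known as the form of Rpl3 in striated muscle, was near background in HSC. It was 10.3, 11.1 and 9.43 in young HSC, 34.2 and 29.7 in Ly6D- and 14.4 and 31.3 in Ly6D+ CLP, and passed the 40th percentile on 3 of the 16 arrays, all CLP. Its log2 changes were 0.87 and 0.53, given with no test since it entered the fit only through CLP arrays, and the first moved from 0.37 to 1.55 with pseudocounts of 64 and 1. Ly6D+ array 1 was the CLP array nearest to the HSC arrays. The testis paralog Rpl39l stayed between 9.78 and 35.8, near background, and did not pass. Rps27l was 1019 and 1164 in Ly6D- and 1229 and 1006 in Ly6D+ CLP. Its log2 changes from young HSC of 0.52 (SE 0.30) and 0.55 (SE 0.30) did not pass, although all 4 CLP arrays were above all 12 HSC arrays. That separation held for its brightest probe set only. On its dimmer probe sets 32-week wild-type array 1 was above Ly6D- array 1, at 676 against 660 and 773 against 750.

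Rps6 went the other way. It was 1669 and 808 in Ly6D- and 1012 and 1349 in Ly6D+ CLP, against 2791, 2425 and 2363 in young HSC, with log2 changes of -1.11 (SE 0.29, adjusted p = 0.0146) and -1.10 (SE 0.29, adjusted p = 0.0148). All 4 CLP arrays were below all young arrays. The call was lost without Ly6D- array 2 (-0.59) and, in the other comparison, without Ly6D+ array 1 (-0.89). Rps3 was lower in Ly6D+ CLP (-0.44, SE 0.14, adjusted p = 0.0323) and -0.36 in Ly6D-, where it did not pass. With 1 array left out the Rps3 call held in 0 of 5 fits. The brightest probe set that lists Rps6 with another symbol, given above for young HSC, was lower on all 4 CLP arrays too, at 21836 and 19753 in Ly6D- and 19748 and 22095 in Ly6D+ CLP. A dimmer one was 1734, 1361 and 1251 in young HSC, 1892 and 1562 in Ly6D- and 1450.1 and 1931 in Ly6D+ CLP, which overlap. Rps14 (0.16 and 0.07), Rpsa (-0.04 and -0.06), Rplp0 (0.21 and -0.07), Rplp2 (0.19 and 0.08), Rpl11 (0.25 and 0.02), Rpl22 (0.30 and 0.36) and Rps4x (-0.16 and -0.16) did not pass in Ly6D- or Ly6D+ CLP. The Ly6D- count of 11 fell to 6 without its array 1 and 7 without its array 2. The Ly6D+ count of 13 fell to 4 without its array 1, 6 without its array 2, and 8 without young array 2, without young array 3 or with these 2 counted as 1.

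The CLP arrays were also set against 32-week wild-type HSC, which share no arrays with the young group. Here 12 of 44 members were higher and 1 lower (29.5%), against 28% of all genes, 15.8% higher and 12.2% lower. After quantile normalization 11 were higher and 3 lower. Without Rpl3l 11 of 43 were higher and 1 lower (27.9%). The members' median without it was 0.149 and that of all genes 0.032. Arrays did not overlap for 15 of 44 members (34.1%), Rpl3l among them, against 25% of all genes. Higher by most were Rps19 (1.28, SE 0.20, adjusted p = 0.000338), Rps15 (0.88, SE 0.21, adjusted p = 0.00752), Rplp0 (0.86, SE 0.26, adjusted p = 0.0249) and Rps10 (0.74, SE 0.16, adjusted p = 0.00371), and Rpl3l was at 0.69, with no test. Rpl11, Rpl41, Rpl19, Rps24, Rplp2, Rpl39 and Rps3 were higher by 0.33 to 0.66. Rpl35 was lower (-0.39, SE 0.12, adjusted p = 0.0297), but was at 0.32 without the _x_at and _s_at probe sets. In Rpl41 2 probe sets rose (0.64 and 0.66) and 2 fell (-1.24 and -0.84). Rplp0 and Rpl11 were called although 32-week and CLP arrays overlapped. Calls held in all 7 fits that left out 1 array for Rps19, Rps15, Rps10, Rpl19 and Rplp2, and in 1 of 7 for Rps3. The count was 8 without 32-week array 3 or without Ly6D- array 1, and 1 (Rps19) when only these 7 arrays were fitted. The large values of the 32-week actin ratio stand beside this comparison too, and their part was not tested.

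Higher signal in CLP against young HSC in both sorts and against 32-week HSC was found for 4 members besides Rpl3l, namely Rpl19, Rps10, Rps15 and Rps24. The comparisons share the CLP arrays, and the share of all genes higher in all of them was not counted. Whether the overlap of members exceeds that of all genes is therefore not known. Rps15 was the only gene with several probe sets in which all of them passed in the same direction, in Ly6D- CLP against young HSC (1.41 and 1.10) and in CLP against 32-week HSC (0.88 and 1.11). Of 6 Rps10 probe sets 5 were higher in both CLP sorts against young HSC. The sixth was at -0.21 in Ly6D- and -0.19 in Ly6D+ CLP. Against 32-week HSC the Rps10 call depended on the probe set. It was lost with the probe set of highest mean over the HSC arrays and without the _x_at and _s_at probe sets. Its change was as low as 0.21 among the alternatives. A dimmer Rps10 probe set was 4486, 3946 and 3343 in 32-week wild-type HSC and overlapped the CLP arrays (3499 to 3979). Rps24 disagreed within the gene, since in Ly6D- CLP against young HSC 1 probe set fell (-1.63, SE 0.46, adjusted p = 0.024) and another rose (1.02, SE 0.26, adjusted p = 0.0133). The 4 CLP arrays also carry the Y-linked signal that young HSC lack, so sex-linked transcripts, cell type and sorting cannot be told apart here.

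**Figure D5:**
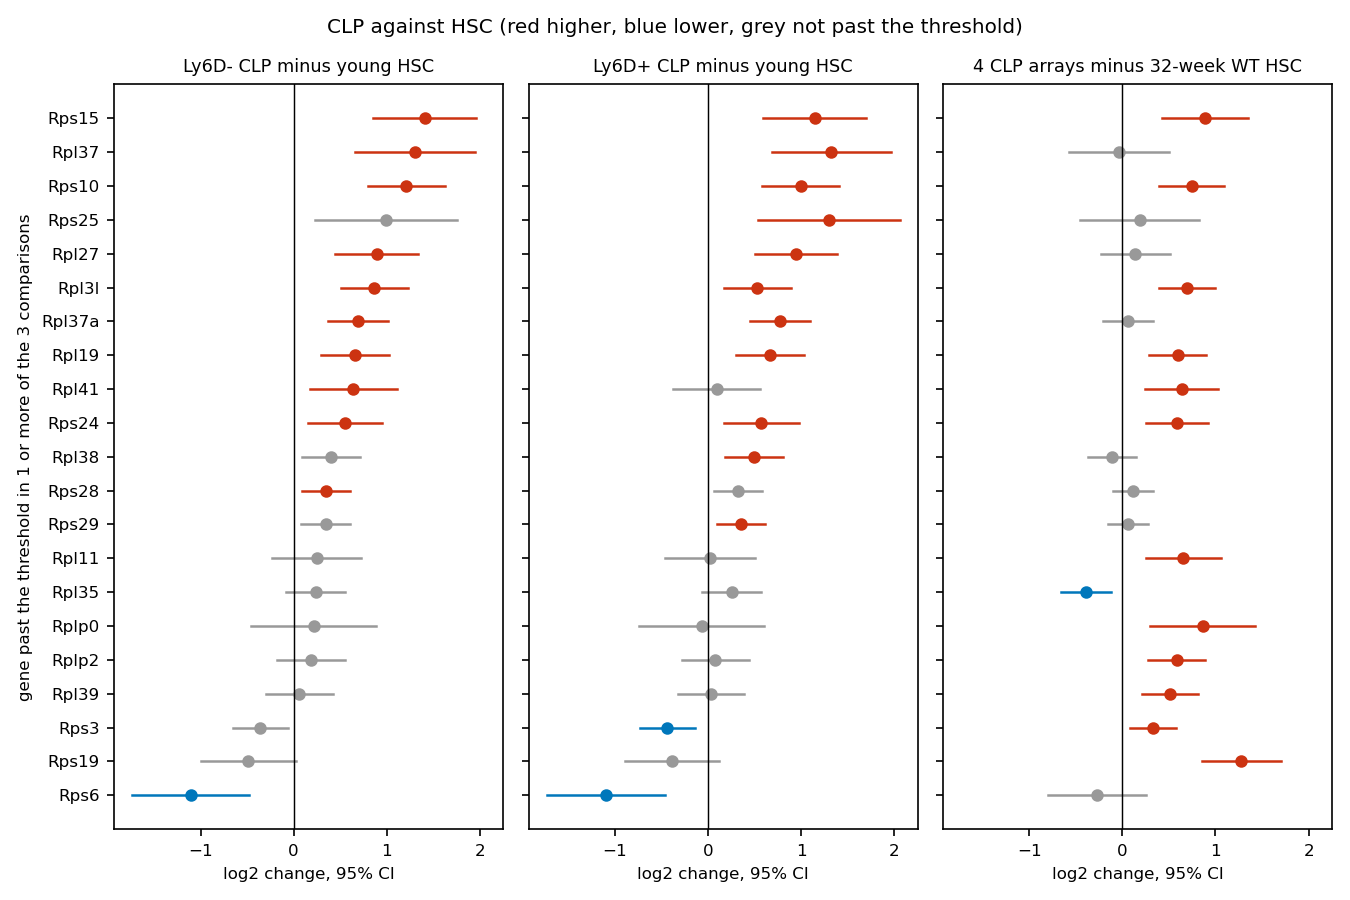
Log2 changes (points) with 95% confidence intervals (lines) of the 21 ribosomal protein genes past the threshold in at least 1 of 3 comparisons, Ly6D- CLP and Ly6D+ CLP against young HSC and the 4 CLP arrays against 32-week wild-type HSC; red is higher, blue lower and grey not past the threshold. Rps15, Rps10, Rpl19 and Rps24 are red in all 3 panels, as is Rpl3l, which entered the fit only through CLP arrays, and Rps6 is blue in the first 2.

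Over all 6 groups, the largest range of the group means on the log2 scale was that of Rps19 (2.03), followed by Rps15 (1.66), Rpl37 (1.35), Rps25 (1.33) and Rps6 (1.33). Apart from Rps16, at background, the smallest were those of Rpl10a (0.20), Rps18 (0.21), Rps14 (0.21) and Rpsa (0.23). These ranges hold for the probe set of highest mean only. A dimmer probe set of Rps18 was 2411 to 3096 in young HSC and 6166 to 8903 in CLP, with every CLP array above every HSC array. The median range was 0.593, with 18 members under 0.5 and 9 over 1. In all, 21 of the 45 members passed in no comparison, Rpl4, Rpl6, Rpl7a, Rpl8, Rps2, Rps14 and Rpsa among them. The 21 include Rps16, which was never tested, and Rpl39l, which was tested in the CLP comparisons only. The share of all genes that passed in no comparison was not counted, so the 21 have no background beside them. Members passed in 1 HSC comparison only, 32-week wild-type against young, with 7 higher and 7 lower. Of all genes 6.42% were higher and 17.7% lower there. The sign also differed between probe sets in 11 of the 20 genes with several tested. Differences between members and between probe sets cannot be told apart in that count.

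Genes outside the ribosome that make or run it were counted from lists chosen with results of these data known. None of the 63 tested genes of ribosome assembly in the nucleolus passed in old against young HSC, and none for the mutator allele. In 32-week wild-type against young HSC 0 rose and 29 fell (46.0%), where 6.42% of all genes were higher and 17.7% lower, among them Nop58 (-2.46, SE 0.46, adjusted p = 0.00334), a core protein of box C/D particles that guide rRNA methylation, and nucleolin, Ncl (-2.40, SE 0.40, adjusted p = 0.00209). Of 25 initiation factors 1 rose and 13 fell there (4% and 52%), and of 8 elongation genes 0 rose and 4 fell, with Eef2 at -1.55 (SE 0.35, adjusted p = 0.00922). In CLP against 32-week HSC 25 assembly genes rose (39.7%) and 0 fell, where 15.8% of all genes were higher and 12.2% lower, with Pes1 (2.25, SE 0.44, adjusted p = 0.00199) and Tcof1 (2.19, SE 0.33, adjusted p = 0.000302), which act in large-subunit assembly and rDNA transcription. Against young HSC 2 rose (3.17%) and 9 fell (14.3%) in Ly6D- CLP, beside 9.55% and 14.9% of all genes. In Ly6D+ CLP 7 rose (11.1%) and 4 fell (6.35%), beside 10.4% and 13.9%. The falls in 32-week HSC and the rises in CLP against them rest on the same 32-week arrays, so they are not independent. Those arrays had an actin 3′ over 5′ ratio of 4.24 to 5.26, against 2.39 to 2.62 in young HSC. The part of that ratio in these counts was not tested.

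Among 23 tested regulators of growth, Mycn, a MYC family factor that drives ribosome production, was lower in Ly6D- CLP (-2.47, SE 0.37, adjusted p = 0.000397) and Ly6D+ CLP (-4.65, SE 0.37, adjusted p = 1.25e-06) than in young HSC. Its relative Myc was higher in Ly6D- (1.48, SE 0.25, adjusted p = 0.000854) and Ly6D+ CLP (1.85, SE 0.25, adjusted p = 0.000121). In Ly6D- CLP 6 of the 23 were higher (26.1%) and 2 lower (8.7%), beside 9.55% and 14.9% of all genes. In Ly6D+ CLP 8 were higher (34.8%) and 4 lower (17.4%), beside 10.4% and 13.9%. The initiation factor genes Eif1ax (-1.50, SE 0.30, adjusted p = 0.00266) and Eif2s3x (-1.39, SE 0.37, adjusted p = 0.0159), both X-linked, were lower in Ly6D- CLP. In Ly6D+ CLP they were lower too, at -1.47 (SE 0.30, adjusted p = 0.0029) and -1.43 (SE 0.37, adjusted p = 0.0137). Xist was near background on all 4 CLP arrays. Both genes were lower as well in 32-week wild-type HSC, at -1.98 (SE 0.24, adjusted p = 0.000411) and -1.99 (SE 0.27, adjusted p = 0.000703). There Xist was near background on array 3 and 7839 and 8052 on arrays 1 and 2. The part of sex in these changes was not tested. Among the 4 genes of ribosomal proteins named outside the symbol pattern that were tested, Fau, the source of Rps30, was higher in Ly6D- CLP (0.90, SE 0.25, adjusted p = 0.0195) and Rps3a1 lower in 32-week wild-type HSC (-1.01, SE 0.30, adjusted p = 0.03), against young HSC.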

How the data were processed

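Sorted HSC and CLP were measured in 16 samples on Affymetrix arrays, hybridised with biotinylated cRNA per the labels' protocols. The deposited values are linear intensities per probe set. For the summary of probes and the authors' normalization, the method is not stated in the labels or the file. Precision is limited by the number of arrays. Values were taken to log2(intensity + 16), so changes of dim genes are understated. The probe set of highest mean stood for each gene, 34958 of 45101 probe sets having 1 symbol. Genes above the 40th percentile of an array on at least 3 of 12 HSC arrays (or 2 of 16 arrays) were tested with limma 3.58.1 in R 4.3.3 (lmFit, eBayes), on the HSC arrays for HSC comparisons and on all 16 for CLP, with Benjamini-Hochberg adjustment over all genes. The method was tested on simulated data.

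The members and gene lists were chosen with earlier results of these data known. Named in each comparison were the 5 largest called changes in each direction, or without calls the 3 smallest p each way, a fixed set of known members, and up to 3 genes a list. Alternatives covered normalization, filter, pseudocount, probe set choice, variance model, samples fitted, the replicate number as a block and each array left out. Same-numbered arrays were compared by the correlation, over genes, of their deviations from group means. For old and young HSC it was 0.509, 0.422 and -0.012 for replicates 1, 2 and 3. It was 0.329, 0.077 and -0.062 for mutator and 32-week wild-type HSC, and 0.236, 0.123 and 0.034 for 32-week wild-type and young HSC. The labels do not say that replicate numbers pair samples, so the main fits used no pairing. Whether same-numbered arrays share a batch or an origin was not tested. Averaging young arrays 2 and 3, testing each probe set as a row of its own and leaving out 32-week array 3 where it is not compared were chosen after seeing the data. If replicates share animals, p-values measure only the spread between samples.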

Additional observations from a re-analysis of the deposited data

How the results depend on the processing

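For old against young HSC, for the mutator allele and for the difference of their effects, 0 members passed under every alternative run. For 32-week wild-type against young HSC, 14 members passed, and 7 did with only the groups compared or with young arrays 2 and 3 averaged, and 7 to 16 with 1 array left out. The Ly6D- CLP count of 11 was 6 to 10 with 1 array left out. The Ly6D+ CLP count of 13 was 8 with the filter at the 60th percentile or young arrays 2 and 3 averaged, 4 to 10 with 1 array of the groups compared left out, and 12 without 32-week array 3. The CLP count of 13 against 32-week HSC was 1 with only the groups compared and 8 to 13 with 1 array left out. Between the CLP sorts 1 member passed with the mean of all probe sets. With the replicate block the counts were 14, 9, 10 and 13 in these comparisons and 0 in the others. Whether replicate numbers pair samples is not stated in the labels. The mean of all probe sets turned Rpl22 with age to 0.047, Rps28 with the mutator allele to -0.037, Rps20 between CLP sorts to -0.24 and Rpl41 in CLP against 32-week HSC to -0.20. Leaving out _x_at and _s_at probe sets turned Rpl35 in 32-week HSC to -0.44 and against CLP to 0.32, Rps20 to -0.37, Rpl41 to -1.24, and Rps24 in the 3 CLP comparisons to -1.63, -0.71 and -1.41. Without old array 1 Rps19 was at -0.033 with age. Without Ly6D+ array 2 Rps25 was at -0.41 and Rps10 at 0.065 between CLP sorts, and without Ly6D+ array 1 at 1.01 and -0.49. The cause was not tested. Fitting only the groups compared made the largest move, from 13 to 1. Signals near background bound what these arrays can show.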
